A study of Homo sapiens with 9 samples.

Results

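Tubulin isotypes were followed through 10 genes, the β-tubulin genes TUBB, TUBB2A, TUBB2B, TUBB3, TUBB4B and TUBB6 and the α-tubulin genes TUBA1A, TUBA1B, TUBA1C and TUBA4A. All probe sets that the platform annotation gave to 1 of these symbols alone were taken, which were 21 probe sets of 8 genes among 44988 probe sets of 18132 genes. TUBB had 6 of them, TUBB4B and TUBB6 had 3 each, TUBB2A, TUBA1A, TUBA1C and TUBA4A had 2 each, and TUBB3 had 1. TUBB2B and TUBA1B had none of their own, and 3 probe sets that they share with another symbol are described apart. The genes were chosen because a TUBB probe set was among the largest increases in the samples frozen without a gradient relative to fresh samples, while others of the family moved less. Values of that comparison chose the genes, so its values are described here, and counts past the study's criterion are given for it without being a test.

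LAN-1, an established neuroblastoma cell line that carries the ganglioside GD2 on its surface, was mixed into bone marrow free of tumor, in 3 biological replicates, and recovered with magnetic beads against GD2. Cells frozen without gradient (3 arrays) were stored with the mononuclear fraction in 20% DMSO at -80°C, thawed and enriched directly. Cells frozen with gradient (3 arrays) were stored in the same way and passed through an additional density gradient after thawing, before enrichment. Fresh cells (3 arrays) were enriched without freezing. All 9 samples held the same cell line, so they report on 1 neuroblastoma genotype, and every sample had passed a first density gradient and the GD2 enrichment. For each sample 100 ng of total RNA was labelled with the Affymetrix 3' IVT procedure and hybridized to 1 PrimeView array, and signals are given as the deposited log2 RMA values. Conditions are those of the deposited labels, which no measurement here checks independently. By these labels, probe sets past the criterion used below made up 1.52% of all probe sets for frozen without gradient against fresh and 0.0467% for frozen with gradient against fresh. The study's text describes the larger change with the gradient. It counted genes by their most variable probe set, and its methods adjust p-values, so its counts and these shares are unlike measures. After Benjamini-Hochberg adjustment of the limma p-values no probe set was under 0.05. The lowest adjusted p was 0.258 without gradient against fresh, 0.826 with gradient against fresh and 0.254 between both frozen conditions. Whether the labels of both frozen conditions were exchanged cannot be settled from the arrays, and if they were, every value given below for frozen without gradient would be that of frozen with gradient, and the reverse.

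Microtubules are built from heterodimers of α- and β-tubulin, and vertebrates encode each chain in several genes whose products, the isotypes, differ mainly in their acidic C-terminal tails. Neurons and the neuroblastoma cells that descend from sympathoadrenal precursors express a characteristic mixture, with TUBB3 as the classical neuronal β-tubulin and TUBA1A as the main α-tubulin of young neurons. Cells hold tubulin mRNA in balance with free tubulin, since the nascent chain is recognised at the ribosome and its mRNA is then degraded. The coding regions of the isotypes are very similar, and probe set names ending in _x_at or _s_at mark probes that can match more than 1 transcript, so signal from a related isotype cannot be told apart from that of the named gene for 18 of the 21 probe sets.

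The arrays differed in 3' and 5' control signals that must be read beside all values below. What part RNA quality or labelling had in these signals was not tested. The difference between the 3' and the 5' control probe set of GAPDH was 1.09, 1.45 and 0.94 on the log2 scale in the 3 arrays frozen without gradient, 6.73, 2.90 and 2.07 in those frozen with gradient and 4.92, 3.56 and 1.56 in the fresh arrays. All 3 arrays frozen without gradient lay below all other arrays (exact permutation test, two-sided, p = 0.1 against fresh, the smallest that 3 against 3 arrays allow), whereas those frozen with gradient overlapped the fresh arrays (p = 0.8 in the same exact test). The same difference of ACTB was 3.33 to 4.11 frozen without gradient, 4.24 to 5.29 frozen with gradient and 3.88 to 5.41 fresh. That of 4 bacterial control RNAs was, in the same order, 1.73 to 1.99, 2.16 to 5.17 and 1.93 to 3.84. In both, frozen without gradient overlapped fresh (p = 0.2 each in the same exact test). The median correlation with the other arrays was 0.928 for replicate 1 frozen with gradient and 0.966 for fresh replicate 1, against 0.983 to 0.990 for the remaining arrays. Of 14 neuroblastoma markers 12 were measured, all with a mean log2 signal of at least 5, and their average lay between 9.53 and 10.27 in the arrays frozen without gradient, between 9.49 and 9.998 in those frozen with gradient and between 9.57 and 10.16 in the fresh arrays.

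TUBB, the most widely expressed β-tubulin, was higher in the arrays frozen without gradient than in the fresh arrays on each of its 6 probe sets, by 0.59 to 2.38 on the log2 scale. The leading probe set, 11753356_x_at, read 11.29, 10.96 and 11.31 in the arrays frozen without gradient, 6.62, 9.01 and 9.96 in the arrays frozen with gradient and 6.87, 8.94 and 10.60 in the fresh arrays. The arrays frozen without gradient stood close together and above all others, while both other conditions spread over more than 3 log2 units and overlapped each other fully. The mean was 11.19 ± 0.20 frozen without gradient, 8.53 ± 1.72 frozen with gradient and 8.80 ± 1.87 fresh (SD, n = 3 each). The difference between frozen without gradient and fresh was 2.38 (standard error 1.0), or 5.21-fold, which placed this probe set at rank 8 of 44988 by log2 fold change and at rank 29 by its SD over the 9 arrays. Within replicate numbers the arrays frozen without gradient exceeded the fresh ones by 4.42, 2.01 and 0.71, so the size of the difference depended on which fresh array it was set against. In bulk RNA of this kind, fewer cells with a transcript and less of it per cell cannot be told apart.

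**Figure D1:**
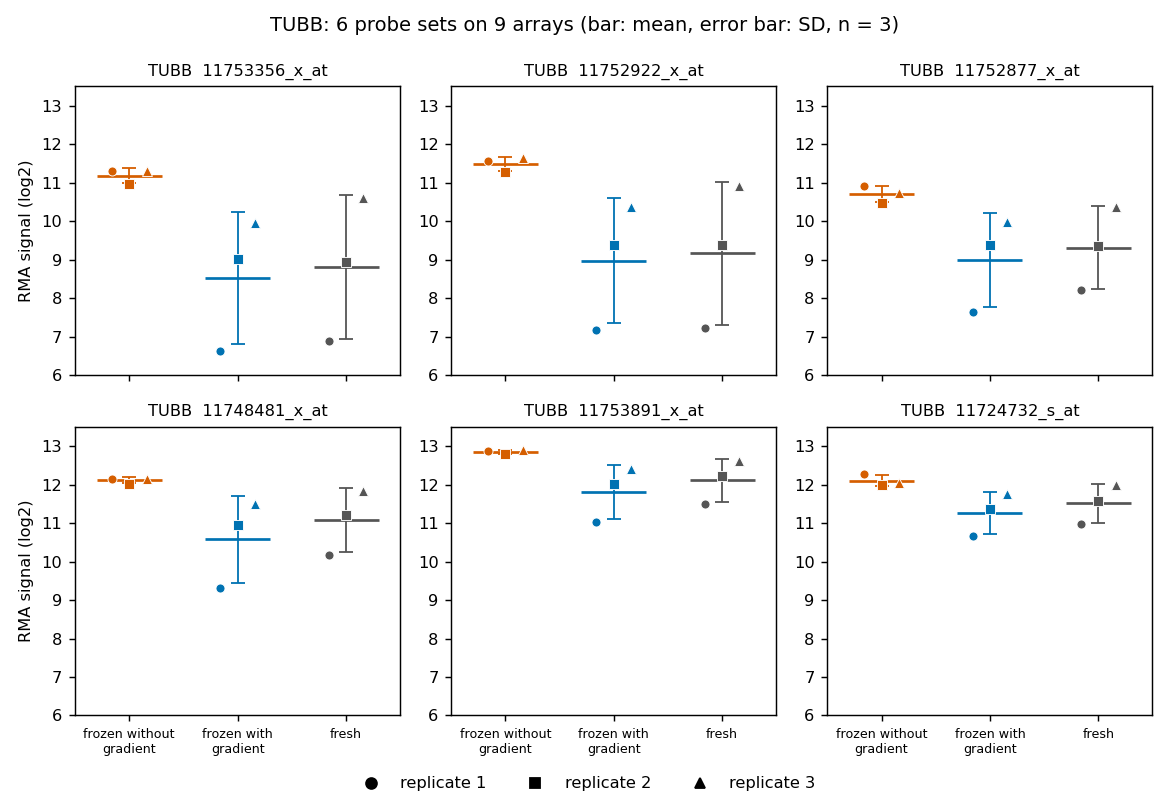
RMA signals (log2, vertical axis) of the 6 TUBB probe sets in the 3 conditions (horizontal axis), with each symbol an array, symbol shape the replicate number, horizontal bars the means and error bars the SD (n = 3). On every probe set the 3 arrays frozen without gradient lie above all fresh arrays and close together, and replicate 1 frozen with gradient is the lowest of the 9 arrays.

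A second probe set, 11752922_x_at, followed the leading one almost exactly. Its signals were 11.56, 11.28 and 11.63 frozen without gradient, 7.18, 9.37 and 10.36 frozen with gradient and 7.22, 9.38 and 10.92 fresh. Centred on their means, both probe sets differed by a root mean square of 0.08 over the 9 arrays, the smallest such difference of any probe set to the leading one. The difference between frozen without gradient and fresh was 2.32 (standard error 0.97), or 5.0-fold.

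The other TUBB probe sets placed the arrays in nearly the same order over a narrower range. Probe set 11752877_x_at read 10.91, 10.48 and 10.72 frozen without gradient, 7.63, 9.39 and 9.97 frozen with gradient and 8.22, 9.36 and 10.36 fresh, with a mean difference from fresh of 1.40 (standard error 0.65) frozen without gradient. Probe set 11748481_x_at read 12.15, 12.02 and 12.16 frozen without gradient, 9.31, 10.95 and 11.49 frozen with gradient and 10.18, 11.22 and 11.83 fresh, and its difference without gradient was 1.03 (standard error 0.56). On both, the arrays frozen without gradient did not overlap any other array, and the lowest signal belonged to replicate 1 frozen with gradient. Probe set 11753891_x_at read 12.86, 12.80 and 12.90 frozen without gradient, 11.04, 12.01 and 12.40 frozen with gradient and 11.50, 12.22 and 12.61 fresh, and differed from fresh by 0.74 (standard error 0.37) without gradient. The smallest difference, 0.59 (standard error 0.31), was that of 11724732_s_at, which read 12.27, 11.996 and 12.05 frozen without gradient, 10.68, 11.37 and 11.76 frozen with gradient and 10.99, 11.57 and 11.99 fresh. Here the lowest array frozen without gradient exceeded the highest fresh array by a narrow margin.

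Ordered by their SD over the 9 arrays, which was 1.80, 1.73, 1.14, 0.98, 0.65 and 0.53, the 6 TUBB probe sets had the same order as by their difference between frozen without gradient and fresh. Their spread within a condition was unequal. The SD over 3 arrays was 0.05 to 0.22 frozen without gradient, 0.55 to 1.72 frozen with gradient and 0.51 to 1.87 fresh. Over all 44988 probe sets the median SD was 0.13 frozen without gradient, 0.24 frozen with gradient and 0.19 fresh. All 6 TUBB probe sets exceeded that median in the arrays frozen with gradient and in the fresh arrays.

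The study's criterion was read as an unadjusted p under 0.05 together with a log2 fold change beyond 1 in either direction. By it the 2 leading TUBB probe sets passed as higher in the arrays frozen without gradient than in fresh ones, among 1.38% of all probe sets that did so. All 6 had no overlap between these conditions, as 9.77% of all probe sets did in this direction. The median log2 fold change was 1.22 over the 6 TUBB probe sets and -0.06 over all probe sets. These shares stand beside the counts only as a background, since TUBB was chosen on this comparison. Neither call stood when any 1 of 6 arrays was left out (any array frozen without gradient, replicate 2 frozen with gradient, and fresh replicates 1 and 2). The count was 4 without replicate 1 frozen with gradient and 5 without fresh replicate 3, where 1 probe set of TUBA4A passed as lower. The difference of the leading probe set was 1.42 without fresh replicate 1 and 3.28 without fresh replicate 3.

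The 6 probe sets also differed from each other. Their log2 fold changes between frozen without gradient and fresh spanned 1.79, whereas the median span was 0.73 over the 498 genes with 6 probe sets, of which 17 (3.41%) spanned at least as much. In the comparison of frozen with gradient and fresh the TUBB probe sets spanned 0.29, less than the median span of 0.50, and 84.5% of these genes spanned at least as much. Between frozen with and without gradient they spanned 1.82, beside a median of 0.81, and 6.22% of these genes spanned at least as much. A leading TUBB probe set beside others that moved less was a reason for the choice, so the span of 1.79 reflects that choice. The span of 1.82 shares the arrays frozen without gradient, and neither share is a test.

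TUBB was measured again in the arrays frozen with gradient, which had no part in choosing the genes, although the fresh arrays they were set against did. No tubulin probe set passed the criterion there in limma, in either direction, beside 0.0467% of all probe sets, and 2 of the 21, of TUBB2A and TUBB4B, had an unadjusted p under 0.05. The leading TUBB probe set differed from fresh by -0.28 (standard error 1.0, 95% confidence interval -2.55 to 2.0, adjusted p = 0.956 from limma with Benjamini-Hochberg adjustment over all probe sets). The other TUBB probe sets differed by -0.49 to -0.20, with adjusted p between 0.853 and 0.969, and all 6 overlapped between the conditions. The median over the 6 TUBB probe sets was -0.28, against 0.01 over all probe sets. The intervals of the leading probe sets were wide in both directions, so a change there was not detectable with these arrays rather than absent. They come from a fit without pairing. Within replicate numbers the leading probe set differed from fresh by -0.26, 0.06 and -0.64, and 11752922_x_at by -0.04, -0.01 and -0.55. With the replicate number as a block, the standard error of the leading probe set was 0.64. Probe set 11724732_s_at, whose arrays spread least, had the narrowest interval, -0.96 to 0.46 around -0.25.

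In the comparison of frozen with and without gradient, which shares the arrays frozen without gradient with the comparison that chose the genes, the TUBB values are again a description, and counts past the criterion are no test. The leading probe set differed by -2.66 on the log2 scale and was 6.31-fold lower frozen with gradient, and the others differed by -2.52 to -0.84. The arrays frozen with gradient lay below all arrays frozen without gradient on all 6 probe sets, as on 13.1% of all probe sets. Of the 6, 5 passed the criterion as lower frozen with gradient, beside 2.66% of all probe sets. The median was -1.62 over the TUBB probe sets and 0.10 over all probe sets. Without replicate 1 frozen with gradient no tubulin probe set passed and the leading difference was -1.70; without replicate 1 frozen without gradient 1 TUBB probe set passed, and without replicate 3 frozen without gradient none of TUBB did and 1 of TUBA1C passed as higher with gradient.

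**Figure D2:**
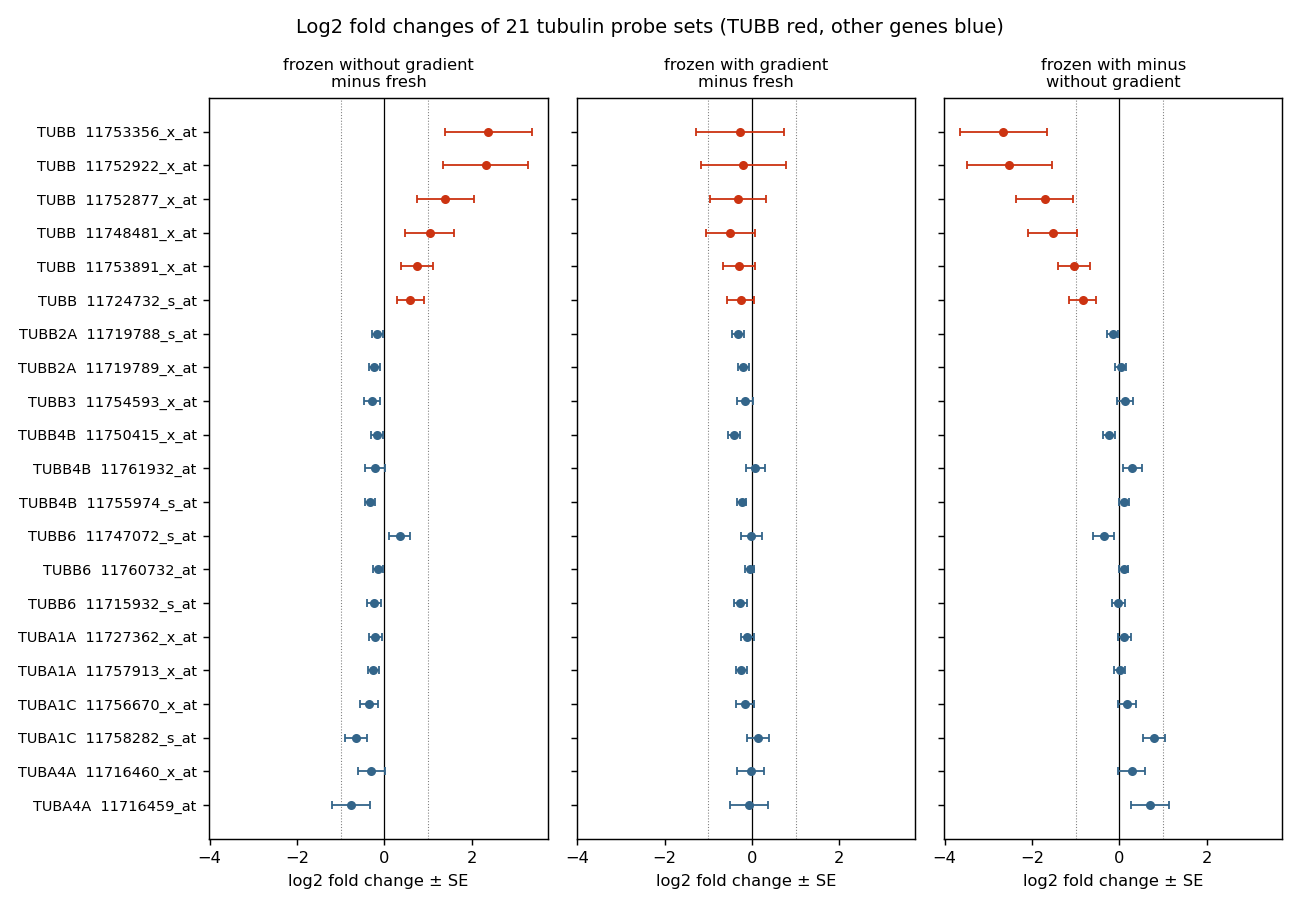
Log2 fold changes with their standard errors (horizontal axes) of the 21 tubulin probe sets (vertical axis; TUBB in red, other genes in blue) in the 3 comparisons, with dotted lines at a log2 fold change of 1 in either direction. The TUBB probe sets lie at 0.59 to 2.38 in frozen without gradient against fresh and at -2.66 to -0.84 in frozen with against without gradient, some inside and some beyond the dotted lines, while the other genes lie between -0.76 and 0.79 throughout.

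The remaining 15 probe sets, of 7 genes, showed no such increase. Between frozen without gradient and fresh, 14 of the 15 had a log2 fold change below 0, as did 60.8% of all probe sets, with a median of -0.24 and a range of -0.76 to 0.35. None passed the criterion. The arrays frozen without gradient lay below all fresh arrays on 3 of them, 2 of TUBB4B and 1 of TUBB6, and 13.4% of all probe sets were of that kind. The TUBB6 probe set among them, 11760732_at, had a mean log2 signal of only 3.37. TUBB4B 11761932_at, with a mean of 5.04, was separate by a narrow margin, 4.97 frozen without gradient beside 4.98 fresh. The 6 α-tubulin probe sets were all below 0, with a median of -0.33.

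TUBB3, the neuronal β-tubulin, read 12.10, 12.15 and 11.69 frozen without gradient, 12.34, 12.13 and 11.86 frozen with gradient and 12.32, 12.43 and 12.04 fresh. Its conditions overlapped, at a difference from fresh of -0.28 (standard error 0.18) without gradient and -0.15 (95% confidence interval -0.57 to 0.27, adjusted p = 0.861 from limma) with gradient. TUBB2A, a β-tubulin prominent in neurons, read 12.01, 11.93 and 11.72 frozen without gradient, 11.62, 11.78 and 11.80 frozen with gradient and 12.03, 12.21 and 11.92 fresh on 11719788_s_at, its most variable and brightest probe set. On this probe set all arrays frozen with gradient lay below all fresh arrays, by -0.32 on average (95% confidence interval -0.61 to -0.03), with an adjusted p of 0.826 from limma. Its other probe set, 11719789_x_at, also had the arrays frozen with gradient below all fresh ones, by -0.20 on average.

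TUBB4B, a β-tubulin of most tissues that is abundant in cilia, was most even frozen without gradient on 11755974_s_at, its probe set with the highest mean, where the SD of 0.02 was the lowest of all tubulin probe sets in that condition. Signals there were 12.04, 12.08 and 12.04 frozen without gradient, 12.32, 12.01 and 12.14 frozen with gradient and 12.37, 12.43 and 12.37 fresh. Every frozen array lay below every fresh array, at a difference of -0.34 (standard error 0.11) without gradient and -0.24 (standard error 0.11, adjusted p = 0.826 from limma) with gradient. Probe set 11750415_x_at read 11.36, 11.49 and 11.42 frozen without gradient, 11.13, 11.01 and 11.41 frozen with gradient and 11.41, 11.60 and 11.76 fresh. Its difference between frozen with gradient and fresh, -0.41 (standard error 0.14, adjusted p = 0.826 from limma), had the smallest unadjusted p of all tubulin probe sets in that comparison, and its highest array with gradient reached the lowest fresh array. The dim and most variable probe set of the gene, 11761932_at, read 4.90, 4.97 and 4.73 frozen without gradient, 5.62, 5.22 and 4.65 frozen with gradient and 5.24, 4.98 and 5.03 fresh.

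TUBB6, a widely expressed β-tubulin, held the single probe set beside those of TUBB that was higher frozen without gradient. This was 11747072_s_at, its most variable, with 10.34, 10.36 and 10.70 frozen without gradient, 9.73, 10.15 and 10.45 frozen with gradient and 9.74, 10.08 and 10.53 fresh. The conditions overlapped, and the difference from fresh was 0.35 (standard error 0.24) without gradient and -0.01 (95% confidence interval -0.56 to 0.54) with gradient. The brightest probe set, 11715932_s_at, went the other way, with 10.94, 11.01 and 11.30 frozen without gradient, 10.90, 10.96 and 11.34 frozen with gradient and 11.24, 11.35 and 11.39 fresh. The remaining one, 11760732_at, had a mean log2 signal of 3.37 and was the only tubulin probe set under a mean of 5.

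**Figure D3:**
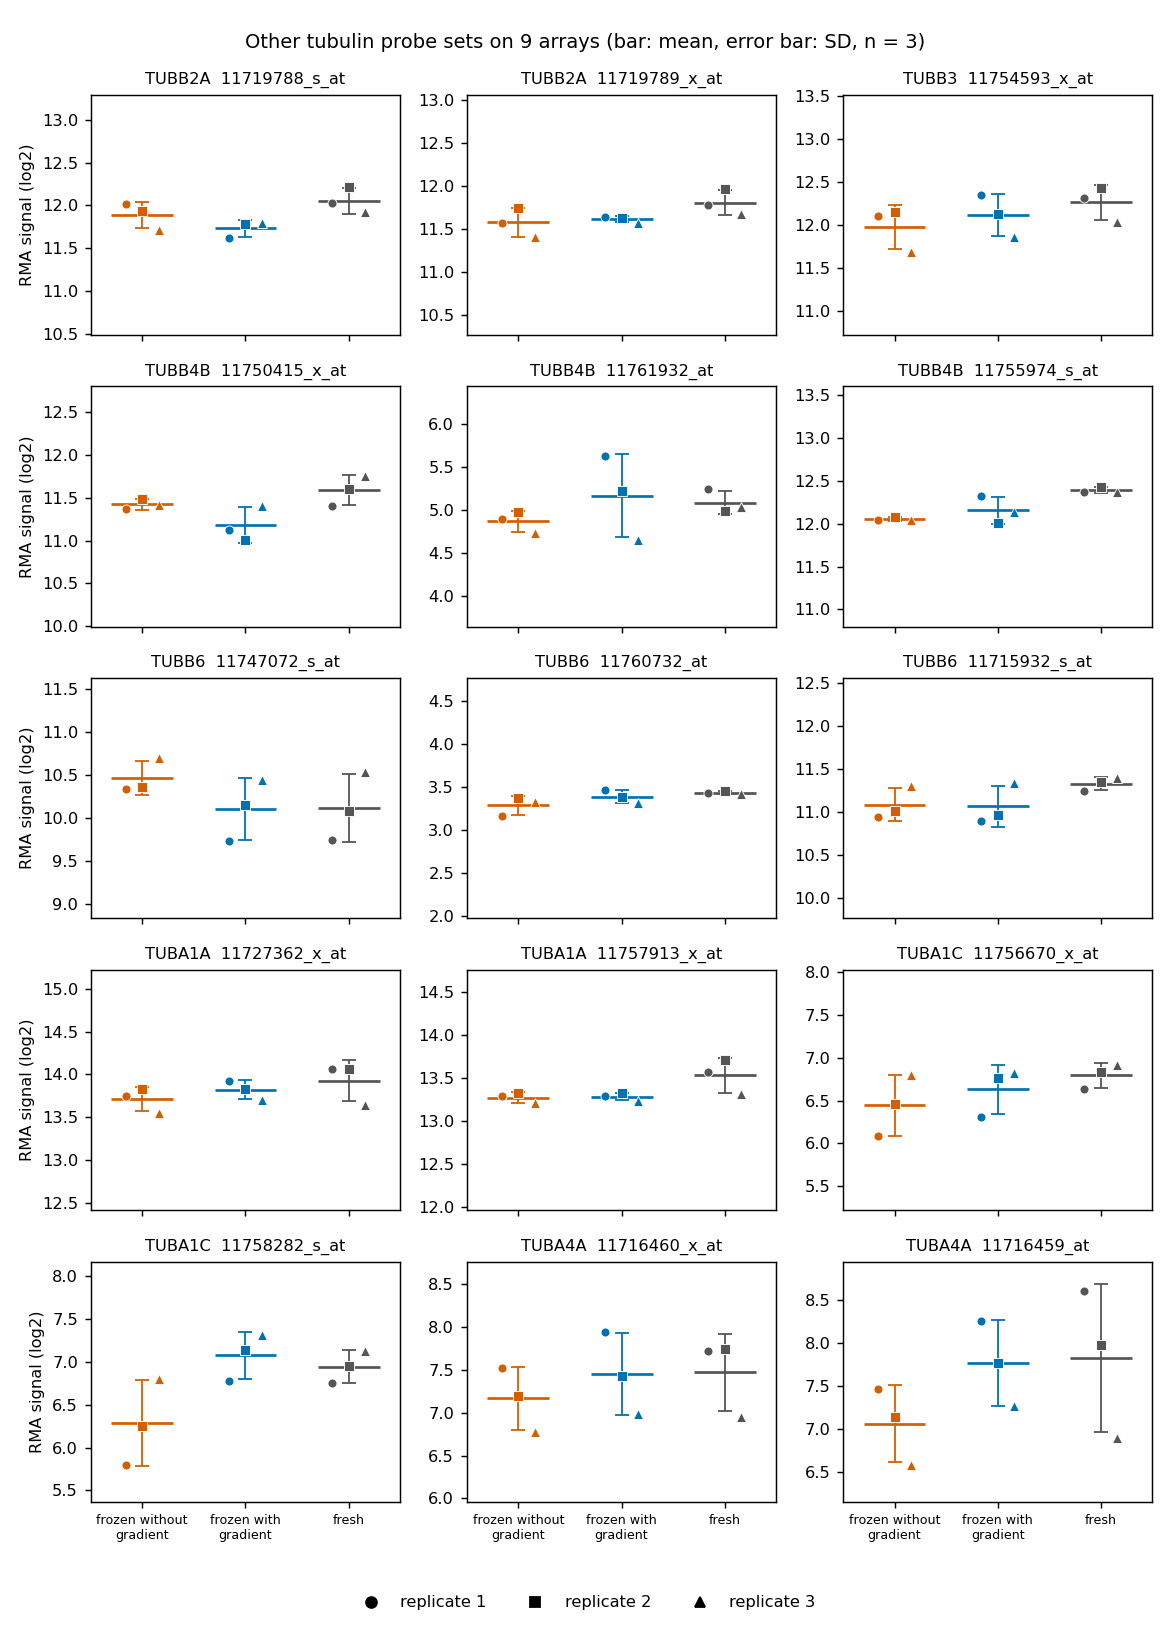
RMA signals (log2, vertical axes, all spanning the same number of log2 units) of the 15 probe sets of the 7 other tubulin genes in the 3 conditions (horizontal axis), with each symbol an array, symbol shape the replicate number, horizontal bars the means and error bars the SD (n = 3). The conditions overlap on most probe sets, and differences from fresh lie between -0.76 and 0.35 frozen without gradient and between -0.41 and 0.13 frozen with gradient.

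Among the α-tubulins, TUBA1A, the isotype of developing neurons, changed little. Its brighter and more variable probe set, 11727362_x_at, read 13.75, 13.83 and 13.55 frozen without gradient, 13.93, 13.83 and 13.71 frozen with gradient and 14.06, 14.07 and 13.65 fresh. On 11757913_x_at the signals were 13.29, 13.32 and 13.20 frozen without gradient, 13.30, 13.32 and 13.23 frozen with gradient and 13.57, 13.72 and 13.31 fresh. Fresh replicates 1 and 2 were the highest on both probe sets, and fresh replicate 3 lay among the frozen arrays on both.

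TUBA1C, a broadly expressed α-tubulin, was lowest frozen without gradient. Probe set 11758282_s_at, the more variable and brighter of its 2, read 5.80, 6.25 and 6.80 frozen without gradient, 6.78, 7.14 and 7.31 frozen with gradient and 6.75, 6.95 and 7.13 fresh. Replicate 3 frozen without gradient reached the lowest arrays of the other conditions, and the difference was -0.66 (standard error 0.25) between frozen without gradient and fresh, 0.13 (standard error 0.25, adjusted p = 0.910 from limma) between frozen with gradient and fresh and 0.79 (standard error 0.25) between frozen with and without gradient. The other probe set, 11756670_x_at, had smaller differences of the same sign without gradient, with 6.08, 6.46 and 6.79 frozen without gradient, 6.31, 6.76 and 6.82 frozen with gradient and 6.63, 6.84 and 6.91 fresh.

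TUBA4A, an α-tubulin whose gene does not encode the C-terminal tyrosine of the other isotypes and which is also made in platelets, was the most variable outside TUBB. Probe set 11716459_at read 7.47, 7.14 and 6.58 frozen without gradient, 8.26, 7.77 and 7.26 frozen with gradient and 8.61, 7.97 and 6.90 fresh. The fresh arrays alone spread between 6.90 and 8.61, overlapping those frozen without gradient, and the difference between frozen without gradient and fresh was -0.76 (standard error 0.44), or -1.14, -0.83 and -0.32 within replicate numbers. With gradient the difference from fresh was -0.06 (95% confidence interval -1.06 to 0.94). Probe set 11716460_x_at read 7.52, 7.20 and 6.78 frozen without gradient, 7.94, 7.43 and 6.98 frozen with gradient and 7.72, 7.74 and 6.95 fresh. The average of 11 platelet and megakaryocyte markers, which include the platelet β-tubulin TUBB1, was 4.74 to 5.27 frozen without gradient, 5.39 to 5.86 frozen with gradient and 4.87 to 5.55 fresh, and the part of such cells in the TUBA4A values was not tested. Of these 11 markers, 6 had a mean log2 signal of at least 5.

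Between frozen with gradient and fresh, the 15 probe sets had a median of -0.15 and a range of -0.41 to 0.13. Of them 13 were below 0, as were 48.8% of all probe sets. The arrays frozen with gradient lay below all fresh arrays on 3, both of TUBB2A and 1 of TUBB4B, beside 3.75% of all probe sets. An unadjusted p under 0.05 was reached by 2 of the 15, beside 4.74% of all probe sets, and the lowest adjusted p was 0.826 (limma). Between frozen with and without gradient their median was 0.10, equal to that of all probe sets, none passed the criterion (2.72% of all probe sets did, in either direction) and none lacked overlap (30.4% did).

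The 3 probe sets shared with another symbol gave TUBB2B and TUBA1B no reading of their own and were not tested. The probe set annotated to both TUBB2B, a β-tubulin of the developing brain, and DXO read 11.43, 11.35 and 11.16 frozen without gradient, 10.79, 10.87 and 11.03 frozen with gradient and 11.43, 11.52 and 11.35 fresh. Its arrays frozen with gradient lay below all others, by -0.53 against fresh and by -0.41 against frozen without gradient. Both probe sets annotated to TUBA1A and TUBA1B, a widely expressed α-tubulin, overlapped between all conditions, at -0.23 and -0.15 frozen without gradient against fresh and -0.19 and -0.10 frozen with gradient against fresh.

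The TUBB signals were set beside the GAPDH control array by array. Ranked by the leading TUBB probe set, highest first, the 9 arrays stood in exactly the order of their GAPDH 3' minus 5' difference, lowest first, which held for 153 of 44988 probe sets (0.340%). Of the other TUBB probe sets, 4 had 7 of 9 arrays at the same rank and 1 had 5, whereas the probe sets of the other genes had 0 to 5. This is a description over 9 arrays, with no test. The leading probe set was chosen as high in the arrays frozen without gradient, which also had the lowest GAPDH differences. Part of the shared order therefore follows from that choice, and the share over all probe sets is only a background. When the GAPDH difference entered the fit as a covariate, the leading TUBB probe set differed by 0.60 (standard error 0.32) between frozen without gradient and fresh and by -0.43 (standard error 0.34) between frozen with and without gradient. For 11752922_x_at these were 0.61 (standard error 0.35) and -0.38 (standard error 0.37). The median over the 6 TUBB probe sets between frozen without gradient and fresh was then 0.17, and none passed the criterion. The arrays frozen without gradient all had a lower GAPDH difference than every other array. In this fit the condition and the GAPDH difference therefore cannot be told apart. Without both arrays of the lowest 5' GAPDH signal, replicate 1 frozen with gradient and fresh replicate 1, that median was 0.72, the 6 probe sets ranged over 0.32 to 1.42, and 2 of them passed the criterion as higher.

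**Figure D4:**
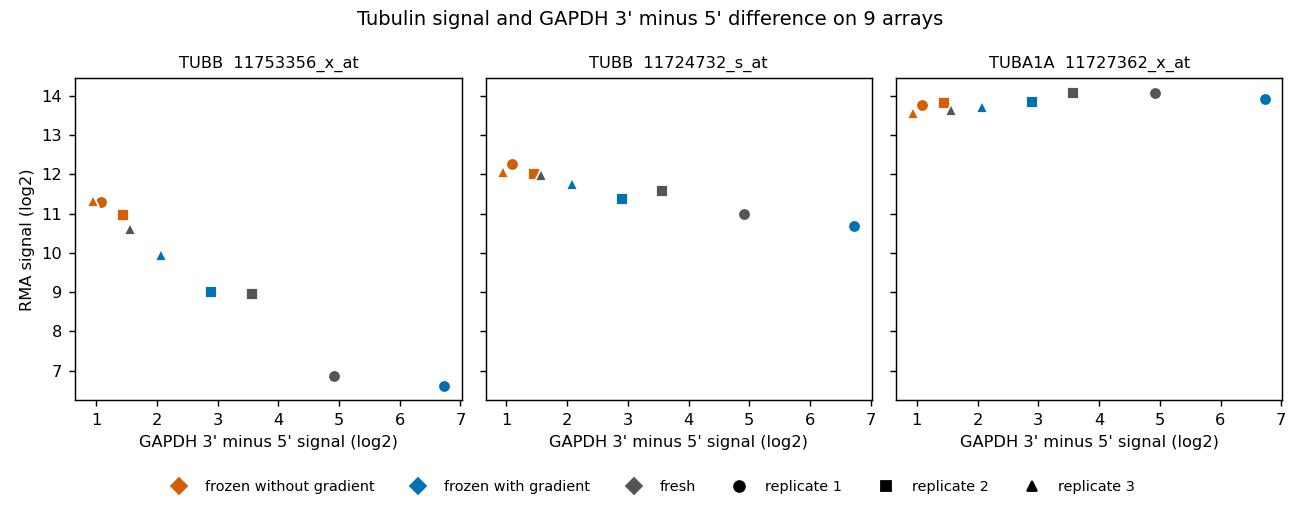
RMA signals (log2, vertical axis) of the leading TUBB probe set, the least variable TUBB probe set and the brighter TUBA1A probe set against the GAPDH 3' minus 5' difference (log2, horizontal axis), with each symbol an array, colour the condition and shape the replicate number. The leading TUBB probe set falls with every step of the GAPDH difference, between 11.31 at a difference of 0.94 and 6.62 at 6.73, the second over a narrower range, and TUBA1A stays between 13.55 and 14.07.

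Markers of other marrow cells were read beside these values. The average of 18 granulocyte markers was 4.29 to 4.59 frozen without gradient, 4.62 to 5.24 frozen with gradient and 5.02 to 6.03 fresh, and 6 of the 18 genes passed the criterion as lower frozen without gradient than fresh, beside 0.144% of all probe sets. For 7 erythroid markers the average was 4.95 to 5.66 frozen without gradient, 5.88 to 6.18 frozen with gradient and 6.04 to 6.26 fresh. Both lists were lowest in the arrays frozen without gradient, where TUBB was highest, and did not overlap the fresh arrays there. The other marrow lists also had their lowest array in that condition, but overlapped the fresh arrays. Of the erythroid markers, 1 passed as lower in each frozen condition against fresh. So did 1 granulocyte marker frozen with gradient, where 0.0467% of all probe sets passed in either direction, and 1 monocyte marker frozen without gradient. The averages were 5.08 to 5.47 frozen without gradient, 5.37 to 5.82 frozen with gradient and 5.42 to 5.74 fresh for 12 monocyte and macrophage markers. For 7 B lymphoid markers they were 5.53 to 5.68 frozen without gradient, 5.71 to 6.24 frozen with gradient and 5.65 to 5.72 fresh. For 10 T and NK lymphoid markers they were 5.01 to 5.05 frozen without gradient, 5.12 to 5.61 frozen with gradient and 5.03 to 5.36 fresh. Many of these markers were dim. A mean log2 signal of at least 5 was reached by 7 of the 18 granulocyte and 4 of the 7 erythroid markers. It was reached by 6 of the 12 monocyte, 4 of the 7 B lymphoid and 6 of the 10 T and NK markers. Of 14 listed erythroid genes only 7 were measured. The part of these marrow cells in the tubulin values was not tested.

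The 5 genes outside the family whose most variable probe set lay nearest to the leading TUBB probe set over the 9 arrays, by the root mean square difference of centred log2 signals among 18124 genes, were EEF1G, a subunit of translation elongation factor 1 (0.27), PTGES3, the co-chaperone p23 (0.28), P4HB, a protein disulfide isomerase (0.30), HNRNPA1, an RNA-binding protein (0.31), and NAP1L4, a histone chaperone (0.31). They differed between frozen without gradient and fresh by 1.98 to 2.50 on the log2 scale and between frozen with gradient and fresh by -0.74 to 0.09. Likeness over all 9 arrays chose them, so differences near those of the leading TUBB probe set follow from the choice.

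Of the genes that nucleate, fold, modify or sever tubulin, few probe sets passed the criterion, as was the case for all probe sets (of which 1.52% passed without gradient and 0.0467% with it, each set against fresh, and 2.72% between both frozen conditions). Against these shares a count of 0 says little about groups of this size. Prefoldin and the chaperonin CCT, which fold newly made tubulin, had 14 genes and 35 probe sets, none of them past the criterion in any comparison, with medians of 0.17 between frozen without gradient and fresh, -0.04 between frozen with gradient and fresh and -0.24 between frozen with and without gradient. The same count of 0 was found for the 64 probe sets of 22 tubulin-modifying enzymes, the 5 probe sets of TTC5, SCAPER and CNOT11, which carry out the decay of tubulin mRNA in response to free tubulin, the 10 probe sets of 7 microtubule-severing genes and the 18 probe sets of 11 other tubulins. TUBB1, the β-tubulin of platelets, belonged to the last group and differed from fresh by -0.40 (standard error 0.58) frozen without gradient and 0.56 (standard error 0.58) frozen with gradient.

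Among the 7 folding cofactors, which assemble the heterodimer, 1 of 18 probe sets passed the criterion as higher frozen without gradient than fresh, 11749261_a_at of TBCE at 1.50 (standard error 0.61), beside 1.38% of all probe sets in this direction. Of the γ-tubulin ring complex and its partners, from which microtubules grow, 2 of 29 probe sets did so. These were 11721883_at of TUBGCP3 at 1.24 (standard error 0.54) and 11748991_a_at of CDK5RAP2 at 1.24 (standard error 0.41). The TUBGCP3 probe set was dim, with a mean log2 signal of 4.22, and overlapped between these conditions. Of the stathmins, which sequester tubulin dimers, 1 of 19 passed as higher, 11753704_a_at of STMN1 at 1.56 (standard error 0.66). Other probe sets of these genes differed among themselves. STMN1 had a second probe set near the first, 11753705_x_at at 1.54. Its 11719666_a_at lay at 0.43, with every array frozen without gradient above every fresh array. Its 11741400_a_at lay at 0.13 and its 11719667_s_at at -0.12, and TBCE 11719854_a_at lay at 0.11. TUBGCP3 11721882_s_at lay at -0.54. Of the other CDK5RAP2 probe sets, 11724523_a_at at 0.69 and 11724524_x_at at 0.41 lay on the same side as the first, with every array frozen without gradient above every fresh array, and 11725276_a_at at -0.24 and 11758253_s_at at -0.35 on the other.

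The probe sets named here for TBCE, TUBGCP3, CDK5RAP2 and STMN1 were all lower frozen with than without gradient, at -1.50, -1.56, -1.13 and -2.13, and passed the criterion, as did STMN1 11753705_x_at at -2.47, TBCD 11744469_a_at at -1.31 and TUBGCP2 11718342_a_at at -1.05. These were 3 of 29 probe sets of the γ-tubulin group, 2 of 18 of the cofactors and 2 of 19 of the stathmins, beside 2.66% of all probe sets. No probe set of these 3 groups passed the criterion between frozen with gradient and fresh, where the lowest adjusted p over all 3 groups was 0.826 (limma).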

How the data were processed

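RNA of 9 samples, 3 per condition, was measured on PrimeView arrays. The authors deposited log2 values of RMA (background correction, quantile normalization and probe summary; version not given in the sources used here), used here unchanged. Of 49395 probe sets, 102 controls, 1832 with several symbols and 2473 with no symbol were left out, leaving 44988. Raw intensities were not used, and the number of arrays limits the precision. All probe sets were fitted in R 4.3.3 with limma 3.58.1 (3 condition means, 9 arrays), and p-values were adjusted over all of them after Benjamini and Hochberg. The criterion was p under 0.05, unadjusted, with a log2 fold change beyond 1 in either direction. Members, gene lists and tests were chosen with earlier results of these data known. Array values are given for each TUBB probe set and, for other genes, at least the most variable and the brightest one. Pathway members are named where past the criterion, and those shown beside them were chosen after their values were seen. The procedure was tested on simulated data. Alternatives were 1 probe set or a mean per gene, median centring, cyclic loess, a filter at a mean log2 of 5, an intensity trend, array weights, a replicate block, only the 6 arrays compared, the GAPDH difference as a covariate, and leaving out each array. Leaving out both arrays of the lowest 5' GAPDH signal and a block with the GAPDH covariate were chosen after seeing the data.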

Additional observations from a re-analysis of the deposited data

Results flagged for a closer look

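In replicate 1 frozen with gradient, the 3' minus 5' difference of 4 bacterial control RNAs, which the cells do not make, was 5.17 on the log2 scale, above all fresh arrays (1.93 to 3.84). It stands here because it lies outside the tubulin measurements and above the range of the control condition. The same array had the lowest signal of all 9 on each of the 6 TUBB probe sets. Over conditions the bacterial difference was 1.82 ± 0.15 frozen without gradient, 3.49 ± 1.54 frozen with gradient and 2.88 ± 0.95 fresh (SD, n = 3 each). Its part in the TUBB values was not tested.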

How the results depend on the processing

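Between frozen without gradient and fresh, 2 tubulin probe sets passed the criterion. The count was 1 gene with the most variable probe set, 0 with the brightest and 1 with the mean per gene. It was 4 with only the 6 arrays compared, 0 with the GAPDH covariate and 0 to 5 when each array was left out. Between frozen with and without gradient the count of 5 was 1 in each per-gene setting and 0 to 6 when each array was left out. With the GAPDH covariate it was 1, a probe set of TUBA1C that was higher with gradient, and without both arrays of the lowest 5' GAPDH signal it was 3. Between frozen with gradient and fresh the count was 0 in all 22 alternatives run. With array weights the lowest adjusted p there was 0.0188 (limma), for TUBB4B 11755974_s_at at -0.39.

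The replicate number was also used as a block. Of 9 same-numbered pairs of arrays, 7 deviated together at a correlation over 0.1 (range 0.03 to 0.76), against a median of -0.11 for other pairs, and 7 of 9 arrays matched their own number best. The data therefore hint at pairing, but replicate 2 fell short of 0.1 in both comparisons with fresh. The labels do not say what the numbers share. The paper describes 3 marrow samples and shows replicates A to C under the 3 conditions, without tying these letters to the deposited numbers. No block was used in the main fit, so its standard errors, intervals and p-values leave any pairing out. Between frozen with and without gradient all 3 pairs were over 0.1. The block made some standard errors smaller and others larger. Between frozen without gradient and fresh it gave 0.64 for the leading TUBB probe set and 0.17 for TUBA4A 11716459_at, beside 1.0 and 0.44 without it. For TUBB4B 11755974_s_at it gave 0.116, beside 0.111 without it, and for TUBB6 11760732_at 0.111, beside 0.105. With the block 4 probe sets passed between frozen without gradient and fresh, 0 between frozen with gradient and fresh and 5 between frozen with and without gradient. With the block and the GAPDH covariate together these counts were 0, 0 and 0.

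Of 627 single values under settings other than leaving out an array, 588 kept their direction. The others, none of them a call, were 16 between frozen with gradient and fresh, 19 between frozen with and without gradient and 4 between frozen without gradient and fresh, and their cause was not tested. Outside the first of these comparisons no TUBB probe set changed direction. The GAPDH covariate accounted for 9 of the 19, among them TUBA4A 11716459_at at -0.10 and 11716460_x_at at -0.27, TUBB3 at -0.13 and TUBB6 11747072_s_at at 0.12, and for 3 of the 4, TUBA4A 11716460_x_at at 0.14, TUBB4B 11761932_at at 0.091 and TUBB6 11747072_s_at at -0.032. Leaving out 1 array turned 18, 7 and 0 values in the same order. Between frozen with gradient and fresh the values were as follows. Under cyclic loess TUBA4A 11716459_at was 0.023 and 11716460_x_at 0.053, TUBB6 11747072_s_at 0.097 and TUBB4B 11761932_at -0.025. Array weights gave 0.14 for the leading TUBB probe set, 0.089 for 11752922_x_at, 0.059 for 11752877_x_at and 0.085 for TUBB6 11747072_s_at. The GAPDH covariate gave 0.17 for the leading TUBB probe set, 0.23 for 11752922_x_at and 0.086 for TUBB6 11747072_s_at, and with the block added 0.12, 0.17 and 0.040. Without both arrays of the lowest 5' GAPDH signal TUBA4A 11716459_at was 0.083 and TUBB4B 11761932_at -0.069. When each array was left out, the range was -1.24 to 0.68 for the leading TUBB probe set, -1.18 to 0.70 for 11752922_x_at, -0.86 to 0.37 for 11752877_x_at, -0.95 to 0.14 for 11748481_x_at, -0.60 to 0.097 for 11753891_x_at and -0.52 to 0.044 for 11724732_s_at. It was -0.20 to 0.20 for TUBB6 11747072_s_at, -0.52 to 0.33 for TUBA4A 11716459_at, -0.28 to 0.21 for TUBA4A 11716460_x_at and -0.15 to 0.34 for TUBB4B 11761932_at. Cyclic loess left the median of all probe sets at 0.00 in the comparison of frozen with and without gradient, where it had been 0.10.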
